A study of Mus musculus and Homo sapiens with 59 samples.

Results

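NIH3T3 is an established line of mouse embryonic fibroblasts. The libraries described here asked what the fibroblasts' transcriptome looked like when they carried a cell-death construct that had not been switched on. The construct, labelled hMLKL1–181-2Fv, is an amino-terminal fragment of human MLKL (residues 1 to 181) joined to 2 copies of the Fv domain, which the small molecule AP20187 brings together. Members were chosen by their labels: 2 untreated libraries of NIH3T3 cells with the construct (called the MLKL libraries) and 2 untreated libraries of NIH3T3 cells with the construct label "None" (the parental libraries), 4 of 59 libraries in the series. All 4 came from cells in DMEM and were made from polyadenylated RNA. The other libraries of the series hold the same line with the construct dimerized, with a GSDMD construct, with digitonin or with siRNA or p65 labels, the mouse lung carcinoma line LLC, and 8 human libraries that were not used here. The labels do not say whether the construct-carrying cells were 1 clone or a mixed population. The effect of the construct and that of the line that carries it therefore cannot be told apart here. Nothing in the labels says that the replicates came from separate cultures. The p-values therefore reflect only how far libraries of a group scattered, pooled over all groups of the line, and that scatter may be technical.

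MLKL is the executioner of necroptosis, a lytic form of programmed cell death. In the natural pathway the kinase RIPK3 phosphorylates MLKL, and the protein's amino-terminal bundle of helices then assembles on the plasma membrane and breaks it. A fragment with that bundle and an inducible dimerization domain lets the step be triggered without any receptor or kinase. Without the dimerizer the fragment is present but is not driven together, so untreated cells of the carrier line are the baseline against which dimerization is read. Gasdermin D, GSDMD, forms pores in a second lytic death programme, pyroptosis.

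Values are TPM, a transcript abundance that is scaled within each library by transcript length and to a fixed total. The deposited TPM of the mouse libraries summed to between 999910 and 999989, so they keep no record of sequencing depth, and the counting error of a single value is unknown. Log2 differences are on the scale log2(TPM + 1), MLKL minus parental, which understates the change of genes at low levels. Replicates correlated across genes at Pearson's r = 0.9918 (parental) and 0.9929 (MLKL), and the median SD between the libraries of a group was 0.0542 and 0.0406 on the log2 scale. The 2 parental libraries had 11457 and 11459 genes at 1 TPM or more, and the MLKL libraries 11503 and 11512. Small and ribosomal RNA took 1.94% and 2.11% of TPM in the parental and 2.16% and 2.36% in the MLKL libraries. Fibroblast markers, of which S100a4 was the highest, summed to 15800 and 15600 TPM in the parental libraries and to 16500 and 16400 TPM in the MLKL libraries. S100a4 averaged 8720 and 8830 TPM in the 2 groups. The carcinoma line's LLC parental libraries also held 5950 and 6090 TPM of S100a4 and 3220 and 3150 TPM of the marker Vim. The sum therefore does not mark fibroblasts alone. Epithelial markers summed to 1.31 and 1.61 against 1.36 and 1.76 TPM, with the defining marker Epcam at 0 in all 4, and endothelial markers to 2.63 and 3.09 against 2.87 and 3.07 TPM. Macrophage markers, of which Cd14 was the highest, summed to 41.0 and 42.3 against 26.7 and 26.7 TPM, and the pan-leukocyte gene Ptprc was at or under 0.0334 TPM in each; the part of such cells in the results was not tested. In bulk RNA fewer cells of a kind and less RNA per cell cannot be told apart.

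The construct itself is human sequence, and no row for it was analysed here, so these libraries offer no direct reading of its transcript. Mouse Mlkl stood at 55.7 and 51.4 TPM in the parental and 66.2 and 62.3 TPM in the MLKL libraries, a small rise of 0.26 ± 0.06 (SE) with a limma adjusted p = 6.24e-04. Mouse Fkbp1a, the immunophilin gene from whose human counterpart the Fv domain derives, was at 336 and 345 against 375 and 365 TPM (0.12 ± 0.04 (SE), adjusted p = 0.00895), a call that 2 of the alternative settings lost. These mouse rows are at most an indirect check of the labels.

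A second set of untreated parental NIH3T3 libraries, labelled noDig and belonging to the digitonin experiment, was used only as a further reference, and its labels are in doubt. The matching LLC noDig libraries carry the construct label "None", yet held 333.0 and 337.0 TPM of Gsdmd and 32.7 and 33.0 TPM of Esr1. The LLC libraries labelled with the GSDMD construct held 376.0 and 377.0 TPM of Gsdmd and 22.5 and 21.9 TPM of Esr1, and the LLC parental libraries 22.6 and 22.6 TPM of Gsdmd and 1.28 and 1.55 TPM of Esr1. In NIH3T3 the noDig libraries held 13.2 and 13.9 TPM of Gsdmd and 0 TPM of Esr1, beside 126.0 and 145.0 TPM of Esr1 in the libraries labelled with the GSDMD construct. For 239 of the 335 genes that differed by 2-fold or more between MLKL and parental libraries (71.3%), the level in the NIH3T3 library group labelled noDig lay nearer to MLKL than to parental. The share was 65.8% for genes higher and 78.9% for genes lower in MLKL. These levels were not centred, and the median tested gene was at 15.7 TPM in the noDig and at 20.9 and 20.6 TPM in the parental libraries. Results that rest on these libraries name them. Leaving all libraries of the digitonin experiment out of the fit gave 6067 genes past the threshold in the comparison of MLKL with parental libraries, against 6027 with them.

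A majority of tested genes differed between untreated MLKL and parental fibroblasts, most of them by little. Of 11655 genes tested with limma, 6027 passed an adjusted p of 0.05 (51.7%), with 2596 higher (22.3%) and 3431 lower (29.4%) in the MLKL libraries. The median absolute difference was 0.195 on the log2 scale. A 2-fold difference or more, here and for the gene lists a difference of at least 1 on log2(TPM + 1), was reached by 335 genes (2.87%), of which 193 were higher (1.66%) and 142 lower (1.22%). The median over all tested genes was -0.0364. With each library centred on its median the split between higher and lower genes became 3028 and 2956.

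**Figure D1:**
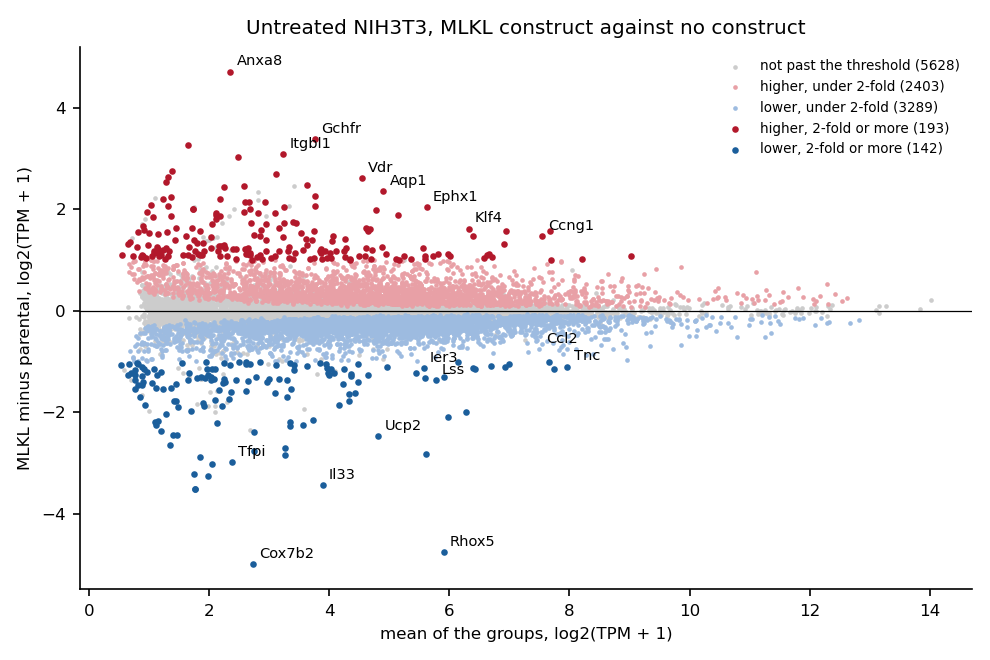
Each point is 1 of 11655 tested genes, with the mean log2(TPM + 1) of the parental and MLKL groups on the x axis and the difference, MLKL minus parental, on the y axis. Dark red and dark blue points are the 193 higher and 142 lower genes that passed the threshold at 2-fold or more, pale points passed it below 2-fold and grey points did not pass; most of the 6027 genes that passed lie below 2-fold, and Anxa8 and Cox7b2 lie farthest out.

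Most of the largest rises were in genes that parental fibroblasts held at low levels. Anxa8 (chr14:34085981-34100571, + strand), a member of the annexin family of calcium-dependent phospholipid-binding proteins, was listed at 0 in both parental libraries and at 23.8 and 26.7 TPM in the MLKL libraries (4.71 ± 0.08 (SE), adjusted p = 3.75e-20). Gchfr (chr2:119167773-119172390, + strand), the feedback regulator of the first enzyme of tetrahydrobiopterin synthesis, read 2.06 and 4.51 TPM in the parental libraries and 42.1 and 41.6 TPM in the MLKL libraries, 12.7-fold higher (3.38 ± 0.18 (SE), adjusted p = 3.31e-12). In both the 2 MLKL libraries lay close to each other; that the groups do not overlap is part of the rule that named the genes. Itgbl1 (chr14:123659971-123975618, + strand), which codes for a secreted protein with integrin-beta-like repeats, went from 2.37 and 2.09 to 25.6 and 27.1 TPM (11.8-fold, 3.08 ± 0.11 (SE)). The calcium-binding protein gene S100a16 was at 1.62 and 0.375 TPM in the parental and 14.7 and 14.3 TPM in the MLKL libraries (3.03 ± 0.19 (SE)).

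Vdr (chr15:97854425-97910630, - strand), the nuclear receptor for active vitamin D, was at 8.64 and 8.25 TPM in the parental and 56.8 and 57.0 TPM in the MLKL libraries, 6.74-fold higher (2.62 ± 0.07 (SE), adjusted p = 1.55e-17). The water channel gene Aqp1 (chr6:55336432-55348555, + strand) read 11.7 and 12.7 against 64.5 and 68.6 TPM, 5.47-fold higher (2.36 ± 0.06 (SE)). Ephx1 (chr1:180976210-181020904, - strand), which codes for microsomal epoxide hydrolase, an enzyme that detoxifies reactive epoxides, had 24.2 and 22.3 against 98.5 and 99.7 TPM, 4.26-fold higher (2.04 ± 0.04 (SE), adjusted p = 4.05e-20). These 3 were already expressed in parental cells, and in each the lowest MLKL library lay several-fold above the highest parental one. Cbr1, a carbonyl reductase of xenobiotic and prostaglandin metabolism, stood at 2.27 and 2.51 against 21.8 and 20.1 TPM (2.69 ± 0.12 (SE)). Among surface proteins, Itgb4, the laminin-binding integrin beta subunit of hemidesmosomes, read 2.74 and 2.55 against 14.7 and 15.4 TPM (2.14 ± 0.08 (SE)). Gria3, a subunit of AMPA-type glutamate receptors, had 2.23 and 1.84 against 12.3 and 12.2 TPM (2.13 ± 0.08 (SE)), and the lectin gene Asgr1 2.89 and 1.07 against 11.4 and 11.5 TPM (2.13 ± 0.18 (SE)). The remaining genes among the 15 largest rises were the serine protease gene Klk8 (2.45 ± 0.12 (SE)), the p53-inducible gene Trp53inp1 (2.04 ± 0.07 (SE)), AU021092, listed at 0 in both parental libraries and at 5.07 and 5.29 TPM in the MLKL libraries, and Apol9b (2.20 ± 0.17 (SE)), whose value is uncertain because it has a close paralogue.

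The largest falls included genes that were nearly lost from the MLKL libraries. Rhox5 (chrX:37804842-37808876, + strand), a homeobox gene of the X-linked reproductive cluster, was at 317 and 306 TPM in the parental and 10.7 and 10.5 TPM in the MLKL libraries, 3.39% of the parental mean (-4.76 ± 0.13 (SE), adjusted p = 3.72e-17). Cox7b2 (chr5:71442824-71548205, - strand), a testis-associated relative of a cytochrome c oxidase subunit, read 32.6 and 40.8 against 0 and 0.364 TPM (-5.0 ± 0.41 (SE)). The neighbouring genes Dppa4 (chr16:48283733-48294237, + strand) and Dppa2 (chr16:48303908-48319723, + strand) code for DNA-binding partners that mark pluripotent cells. Dppa4 was at 10.6 and 12.1 against 0.224 and 0.343 TPM (-3.26 ± 0.16 (SE)), and Dppa2 at 11.5 and 10.1 against 0.481 and 0.430 TPM (-3.02 ± 0.14 (SE)). Xlr3a, of the X-linked lymphocyte-regulated family, was at 10.2 and 10.7 TPM in the parental libraries and listed at 0 in both MLKL libraries, and its near-identical copies make the value uncertain.

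Il33 (chr19:29925114-29960718, + strand), a nuclear cytokine that damaged cells release as an alarm signal, was at 50.8 and 44.9 TPM in the parental and 3.28 and 3.71 TPM in the MLKL libraries, 7.31% of the parental mean (-3.44 ± 0.09 (SE), adjusted p = 1.24e-17). Ucp2 (chr7:100493337-100502020, + strand), an inner mitochondrial membrane carrier, read 65.2 and 65.5 against 10.9 and 11.1 TPM, 16.8% of the parental mean (-2.47 ± 0.09 (SE)). In both genes the replicates lay close together. Sulf1 (chr1:12692277-12861192, + strand), an extracellular enzyme that removes sulfate groups from heparan sulfate, was at 10.9 and 10.2 TPM in the parental libraries and 0 and 0.0192 TPM in the MLKL libraries (-3.52 ± 0.08 (SE)). Tfpi, the inhibitor of tissue factor, read 13.2 and 14.1 against 0.818 and 0.904 TPM (-2.98 ± 0.22 (SE)), and Pde1a, a calmodulin-dependent phosphodiesterase of cyclic nucleotides, 5.35 and 5.0 against 0.129 and 0.133 TPM (-2.45 ± 0.11 (SE)). The atypical heat shock protein gene Hspa12a (-2.89 ± 0.09 (SE)) and the Notch-ligand relative Dlk2 (-2.40 ± 0.14 (SE)) were also among the 15 largest falls. Akr1c12 (-2.45 ± 0.21 (SE)) and Raet1b (-2.21 ± 0.70 (SE), adjusted p = 0.0118) belong to families of near-identical genes and are uncertain, and Raet1b lost its call under 3 of the alternative settings. The last of the 15 is a row named only by an accession and is not described.

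**Figure D2:**
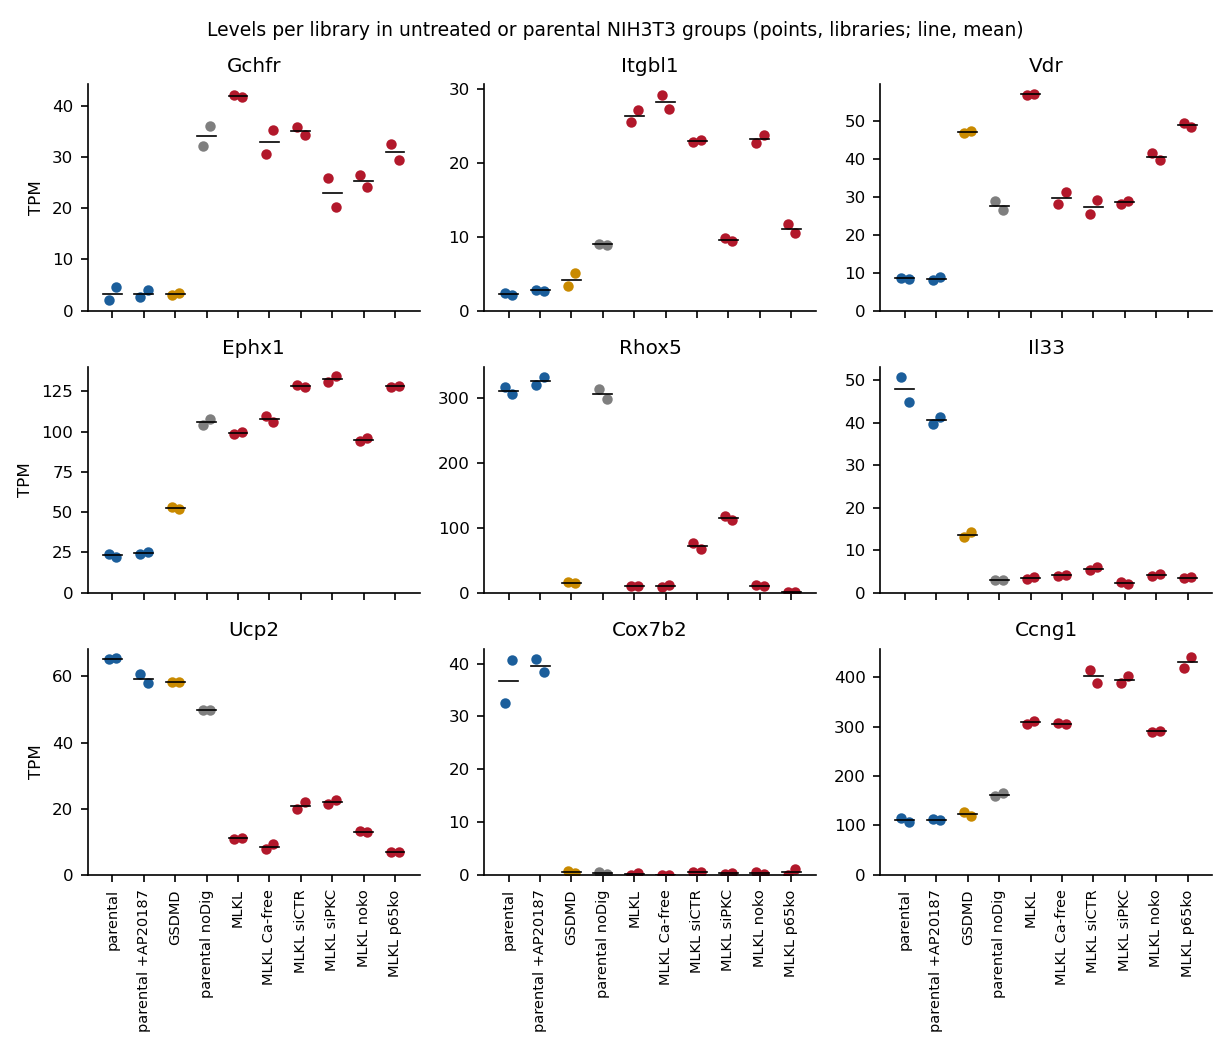
TPM of 9 genes in each library of 10 NIH3T3 groups (x axis; points are libraries, lines are means; y axis in TPM, from 0): parental untreated or with AP20187, GSDMD construct, parental noDig, and 6 untreated groups with the MLKL construct. The 2 parental groups of the same experiment agree closely, and the untreated MLKL libraries lie apart from them in every panel, while the GSDMD and noDig groups lie near the parental level for some genes and near the MLKL level for others.

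Parental cells given 100 nM AP20187 for 1 h stayed near the untreated parental level: their group mean was nearer to MLKL than to parental for 5 of the 335 genes (1.49%). In these cells Rhox5 averaged 326 TPM, Il33 40.6 TPM, Vdr 8.40 TPM and Anxa8 0.0144 TPM. The other untreated groups with the MLKL construct were mostly near the MLKL level. The nearer mean was that of the MLKL libraries for 303 of the 335 genes in calcium-free medium (90.4%), 292 in the siCTR group (87.2%), 288 in the noko group (86.0%), 280 in the p65ko group (83.6%) and 259 in the siPKC group (77.3%). The GSDMD group was nearer to MLKL for 128 (38.2%). Its means were 3.25 TPM for Gchfr and 58.3 TPM for Ucp2, near the parental level, but 47.1 TPM for Vdr, 15.6 TPM for Rhox5 and 0.519 TPM for Cox7b2, near the MLKL level. Means in the noDig group were 306 TPM for Rhox5 and 49.9 TPM for Ucp2, near parental, but 34.0 TPM for Gchfr, 106 TPM for Ephx1, 3.00 TPM for Il33 and 0.330 TPM for Cox7b2, near MLKL. Ccng1 separated the MLKL-construct groups from the rest: its means were 111, 112, 123 and 162 TPM in the parental, parental with AP20187, GSDMD and noDig groups, and 306, 402 and 290.4 TPM in the calcium-free, siCTR and noko, and 395 and 430.2 TPM in the siPKC and p65ko MLKL groups.

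Genes of the cholesterol pathway were lower as a block. Cells make cholesterol from acetyl-CoA through mevalonate and squalene, and also take it up from lipoproteins. The membrane-bound factor SREBP-2 switches on the genes of synthesis and uptake together when sterols are scarce. All 23 tested genes of a list for cholesterol synthesis and uptake were lower in the MLKL libraries, beside 29.4% of all tested genes, with a median of -0.809, and 8 of them by 2-fold or more. Every one of the alternative settings kept 22 or 23 of them lower. The list was chosen with earlier results of these data known. The shares given with the gene lists that follow are of tested members that passed the threshold, to be read beside 51.7% of all tested genes (22.3% higher and 29.4% lower).

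From its first steps to its last, the pathway's enzymes read as follows. Hmgcs1, which makes the first committed intermediate, was at 297 and 277 TPM in the parental and 142 and 140.3 TPM in the MLKL libraries (-1.02 ± 0.04 (SE)). Acat2, a thiolase of the same early steps, had 319 and 319.5 against 143 and 142 TPM (-1.16 ± 0.05 (SE)). In the middle of the pathway, Fdps, the farnesyl diphosphate synthase, read 683 and 713 against 354 and 357 TPM (-0.97 ± 0.04 (SE)). Lss, the cyclase that closes the sterol rings, was lowest relative to parental cells, at 86.0 and 87.5 against 32.6 and 33.6 TPM (-1.36 ± 0.04 (SE), adjusted p = 1.96e-17), and Dhcr7, which acts near the end, read 22.8 and 23.5 against 8.6 and 9.94 TPM (-1.23 ± 0.08 (SE)). Parental and MLKL libraries did not overlap in any of these genes. Their choice by small p or after their values were seen largely fixes that. Insig1, which retains the SREBP complex in the endoplasmic reticulum and is itself a target, read 318 and 319.8 against 174 and 176 TPM (-0.86 ± 0.03 (SE)). The smallest falls were those of Ebp (-0.20 ± 0.08 (SE), adjusted p = 0.0342), Sqle (-0.22 ± 0.03 (SE)) and Srebf2, the gene of SREBP-2 itself (-0.24 ± 0.06 (SE)).

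Promoter sequences are shown for 3 of these genes, an early enzyme, a late enzyme and the regulator, because the members moved together and the pathway's regulators bind near the start site. Each run is the 250 bases before the first listed start of the gene in RefSeq on GRCm38.p6, written 5′ to 3′ on the gene's strand. Capitals mark CCAAT boxes (CCAAT, or ATTGG where the box lies on the other strand) and the sterol-response-like octamer CACCCCAC.
Hmgcs1, chr13:119690101-119690350, + strand: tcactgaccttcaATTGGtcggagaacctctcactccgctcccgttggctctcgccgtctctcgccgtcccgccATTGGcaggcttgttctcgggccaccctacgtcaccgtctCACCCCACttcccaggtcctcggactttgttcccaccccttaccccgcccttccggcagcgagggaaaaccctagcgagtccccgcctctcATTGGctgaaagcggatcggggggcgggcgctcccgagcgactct
Lss, chr10:76531355-76531604, + strand: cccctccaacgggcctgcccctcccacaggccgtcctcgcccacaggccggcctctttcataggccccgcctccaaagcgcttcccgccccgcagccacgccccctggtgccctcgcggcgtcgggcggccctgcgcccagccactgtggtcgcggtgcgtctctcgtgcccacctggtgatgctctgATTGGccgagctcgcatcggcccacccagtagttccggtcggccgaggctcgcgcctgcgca
Insig1, chr5:28071162-28071411, + strand: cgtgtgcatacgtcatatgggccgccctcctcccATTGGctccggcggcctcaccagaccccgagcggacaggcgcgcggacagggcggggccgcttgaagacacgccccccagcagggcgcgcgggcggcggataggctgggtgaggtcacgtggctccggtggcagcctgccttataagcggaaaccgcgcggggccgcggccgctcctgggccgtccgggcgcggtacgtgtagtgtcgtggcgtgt

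Promoters were found for 16 of the 23 tested members. Searched on both strands, CCAAT occurred in 14 of 16 (87.5%), against 34.5% of 27025 promoters of the same length and 37.9% of the 8765 promoters of tested genes. The GC box GGGCGG occurred in 15 of 16 (93.8%), against 32.9% and 61.0%. The octamer CACCCCAC occurred in 2 of 16 (12.5%; Hmgcs1 and Acat2), against 2.51% and 2.53%; in Hmgcs1 it began 136 bases before the start on the gene's strand. The motifs do not overlap each other in letters. A match describes the letters only, and the shares of 16 promoters are imprecise.

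The level of the cholesterol list did not follow the construct alone. On a scale centred on each library's median and then on the mean of 10 groups, the median of the 23 members was 0.563 and 0.582 in the parental and -0.137 and -0.198 in the MLKL libraries. It was 0.615 and 0.621 in parental cells with AP20187, and 0.610 and 0.622 in the untreated noko group, which carries the MLKL construct. The untreated siCTR and siPKC groups, with the same construct, had -0.363 and -0.392 and -0.473 and -0.459, and the GSDMD group -0.429 and -0.417. The calcium-free MLKL libraries had 0.003 and -0.01, the p65ko libraries -0.143 and -0.151, and the parental noDig libraries -0.023 and -0.114. Lss, a member of the list, averaged 86.7 TPM in the parental, 33.1 in the MLKL, 78.8 in the noko, 29.3 in the siCTR and 45.7 in the GSDMD group.

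**Figure D3:**
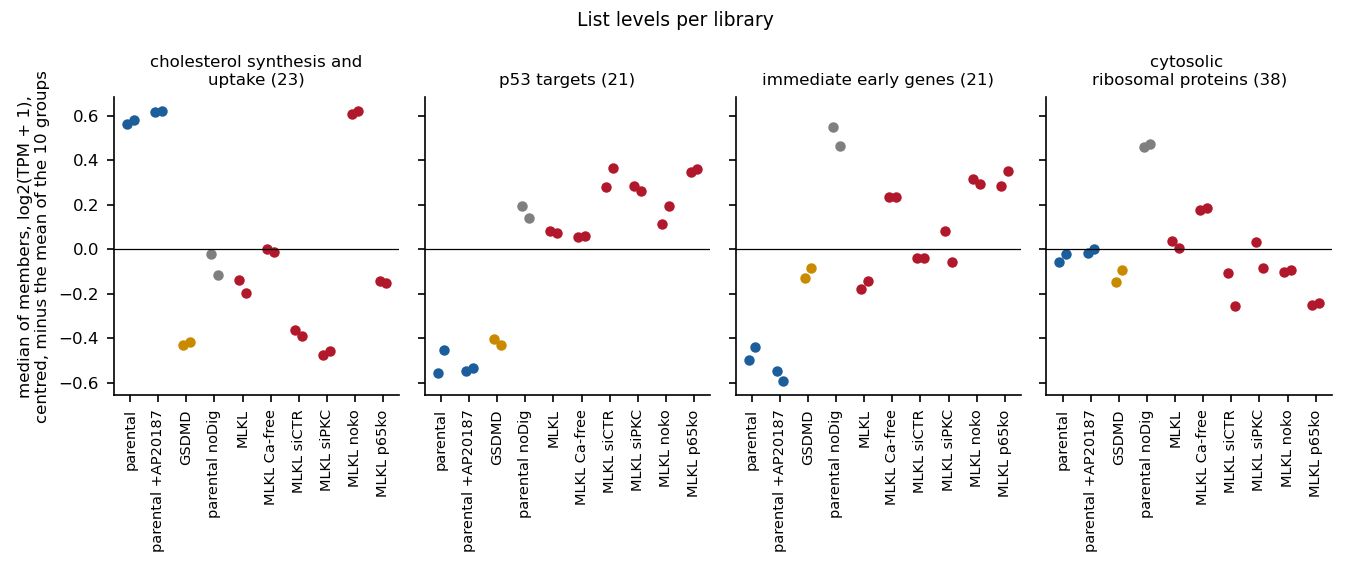
Median level of the tested members of 4 gene lists in each library (points) of 10 NIH3T3 groups (x axis), on log2(TPM + 1) centred on each library's median and on the mean of the 10 groups (y axis). The cholesterol list is high in the untreated and AP20187 parental groups and in the noko MLKL group. It is lower in the untreated MLKL libraries (-0.137 and -0.198) and in the parental noDig libraries (-0.023 and -0.114). The p53 list is low in the untreated parental, AP20187 parental and GSDMD groups and higher in every MLKL group and in the noDig group.

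Targets of p53 were mostly higher. The p53 protein restrains the cell cycle and can trigger apoptosis after DNA damage and other stresses, and the genes it activates include its own inhibitor Mdm2. Of 21 tested targets, 16 were higher and 3 lower (90.5%), with a median of 0.528 beside -0.036 over all tested genes, and the alternative settings gave 15 or 16 higher. Ccng1, a cyclin G, was at 115 and 107 TPM in the parental and 306 and 311 TPM in the MLKL libraries (1.47 ± 0.04 (SE), adjusted p = 7.39e-17). Trp53inp1, which promotes p53 activity and autophagy, read 3.87 and 3.53 against 17.9 and 18.9 TPM (2.04 ± 0.07 (SE)). Phlda3, an inhibitor of AKT, had 62.8 and 68.1 against 137 and 134 TPM (1.04 ± 0.05 (SE)). The RNA-binding protein gene Zmat3 went from 14.4 and 14.4 to 27.1 and 27.7 TPM (0.89 ± 0.04 (SE)), and the ubiquitin ligase gene Mdm2 from 57.9 and 56.0 to 93.1 and 95.6 TPM (0.72 ± 0.04 (SE)). Cdkn1a, the p21 inhibitor of cyclin-dependent kinases, read 89.5 and 89.2 against 146 and 147 TPM (0.71 ± 0.04 (SE)), and the death effector gene Bax 218 and 229.6 against 297 and 286 TPM (0.38 ± 0.05 (SE)). Every one of these genes was higher in both MLKL libraries than in either parental library, which their choice by small p or by value largely fixes. The 3 that were lower were Plk3 (-0.91 ± 0.06 (SE)), Sesn1 (-0.55 ± 0.07 (SE)) and Gadd45a (-0.47 ± 0.07 (SE)), and Trp53 itself did not pass, at 191 and 207 against 208 and 209 TPM. On the centred scale the list stood at -0.557 and -0.453 in the parental, -0.546 and -0.532 in the parental AP20187 and -0.405 and -0.428 in the GSDMD libraries. It stood at 0.082 and 0.075 in the MLKL libraries, between 0.054 and 0.364 in the other untreated MLKL groups, and at 0.194 and 0.141 in the noDig libraries.

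The cell-death machinery itself showed differences, some of them in genes at low levels. Of 12 tested necroptosis and pyroptosis genes, 6 were higher and 1 lower (58.3%, beside 51.7% of all tested genes). None differed by 1 or more on log2(TPM + 1), although the mean TPM of Gsdmd and of Il18 was over 2-fold higher, since that scale understates changes at low levels. The counts stayed at 6 and 1 with median centring or a filter of 5 TPM, and with no filter 7 were higher and 3 lower of 20. Fewer were higher without MLKL replicate 1 or without parental replicate 1. More were lower without parental replicate 2 or without MLKL replicate 2, and fewer without parental replicate 1. Gsdmd was at 6.14 and 5.44 TPM in the parental and 12.4 and 11 TPM in the MLKL libraries (0.90 ± 0.08 (SE), adjusted p = 3.28e-09). Il18, a cytokine released through gasdermin pores, read 3.70 and 3.88 against 9.0 and 8.0 TPM (0.99 ± 0.18 (SE)). The adaptor gene Ticam1 (0.37 ± 0.07 (SE)), the protease gene Casp8 (0.24 ± 0.07 (SE)) and Ninj1, whose product ruptures the membrane of dying cells (0.28 ± 0.10 (SE)), were higher, besides Mlkl. Fadd, the death-domain adaptor, was lower (-0.31 ± 0.09 (SE)), and the kinase gene Ripk1 did not pass, at 29.1 and 27.1 against 26.7 and 26.9 TPM.

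Membrane repair relies on calcium-sensing annexins and dysferlin and on the ESCRT machinery, which pinches off damaged patches. Of 22 tested genes 8 were higher and 4 lower (54.5%, near the 51.7% of all tested genes). Dysf, dysferlin, was the largest change, at 14.2 and 13.9 TPM in the parental and 3.81 and 4.02 TPM in the MLKL libraries (-1.62 ± 0.06 (SE), adjusted p = 1.54e-14). In the other direction Anxa1 read 479 and 455 against 782 and 764 TPM (0.72 ± 0.04 (SE)), Anxa2 1807 and 1791 against 2123 and 2165 TPM (0.25 ± 0.03 (SE)) and the caveolin gene Cav1 381 and 364 against 577 and 587 TPM (0.64 ± 0.03 (SE)). Annexins and caveolin are abundant fibroblast transcripts. The MLKL libraries were above the parental ones in all 3, which their choice by small p or by value largely fixes. ESCRT genes went both ways: Chmp2b was higher (0.62 ± 0.08 (SE)), and Tsg101 (-0.35 ± 0.07 (SE)) and Chmp5 (-0.29 ± 0.06 (SE)) were lower.

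Calcium pumps, channels and sensors went in both directions, with 8 higher and 13 lower of 26 (80.8%, beside 51.7% of all tested genes). Atp2a2, the pump that fills the endoplasmic reticulum with calcium, was at 205 and 197 TPM in the parental and 147 and 149.7 TPM in the MLKL libraries (-0.44 ± 0.03 (SE)), and the plasma membrane pump Atp2b1 was lower (-0.33 ± 0.05 (SE)) while its paralogue Atp2b4 was higher (0.73 ± 0.09 (SE)). The catalytic subunit gene of calcineurin, Ppp3ca, read 49.5 and 49.1 against 72.2 and 76.6 TPM (0.58 ± 0.05 (SE)), and the store-operated channel gene Orai2 8.17 and 8.07 against 12.5 and 12.8 TPM (0.59 ± 0.07 (SE)). Calm2, 1 of the genes for calmodulin, was lower, from 738 and 697 to 537 and 518 TPM (-0.44 ± 0.05 (SE)). Of 8 protein kinase C and D genes 1 was higher (Prkcd, 0.28 ± 0.06 (SE)) and 4 lower (62.5%), led by Prkd3 (-0.49 ± 0.09 (SE)); the 4 became 2 with median centring or without parental replicate 1, parental replicate 2 or MLKL replicate 1, and 1 with only the libraries of the comparison. Of 14 FKBP immunophilin genes 2 were higher and 4 lower (42.9%, under the share of all tested genes), led by Fkbp5 (-0.37 ± 0.07 (SE)). The 4 became 1 with median centring or without parental replicate 2, and 2 with quantile normalization or without any 1 of the other 3 libraries, and the 2 higher became 1 without parental or MLKL replicate 1.

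Immediate early genes went both ways. These are genes, most of them for transcription factors, that signals switch on within minutes. Of 21 tested, 10 were higher (47.6%) and 5 lower (23.8%), beside 22.3% and 29.4% of all tested genes, with a median of 0.171. Orphan nuclear receptors of the Nr4a family rose with Klf4: Nr4a1 was at 66.9 and 73.9 TPM in the parental and 213 and 209 TPM in the MLKL libraries (1.57 ± 0.06 (SE)), and Nr4a2 at 14.2 and 13.3 against 43.7 and 43.5 TPM (1.60 ± 0.05 (SE)). Klf4, a zinc finger factor of growth arrest, read 45.4 and 44.0 against 137 and 142 TPM (1.62 ± 0.03 (SE), adjusted p = 1.27e-19), and the AP-1 member Fosl2 45.8 and 47.5 against 81.5 and 82.3 TPM (0.80 ± 0.04 (SE)). Other early genes went the other way. Ier3 was at 69.2 and 69.9 against 31.4 and 30.8 TPM (-1.14 ± 0.06 (SE), adjusted p = 1.66e-12) and Egr1 at 6.43 and 6.05 against 4.32 and 4.19 TPM (-0.46 ± 0.07 (SE)), and Myc (-0.47 ± 0.05 (SE)), Jun (-0.41 ± 0.05 (SE)) and Klf6 (-0.23 ± 0.05 (SE)) were lower too. Fos, below the level needed for the test, was at 0.466 and 0.414 TPM in the parental and 0.674 and 0.835 TPM in the MLKL libraries. Several early genes did not keep these directions in other untreated carriers of the construct. Egr1 averaged 106 TPM in the calcium-free, 13.1 in the siCTR, 9.63 in the siPKC, 19.9 in the noko and 27.6 in the p65ko group, all above its parental mean of 6.24 TPM. Ier3 averaged 71.6, 85.7 and 78.5 TPM in the calcium-free, noko and p65ko groups, at or above the parental 69.5 TPM, and 35.5 and 27.4 TPM in the siCTR and siPKC groups. Jun, at 56.2 TPM in the parental group, lay between 97.3 and 189 TPM in those 5 groups. Nr4a1 was not high in all untreated carriers of the construct: it averaged 76.0 TPM in the calcium-free and 62.0 TPM in the siCTR group, beside 70.4 TPM in the parental group.

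Of 15 tested cytokine and chemokine genes 7 were lower (46.7%) and 2 higher (13.3%), beside 29.4% and 22.3% of all tested genes. The 2 higher became 1 with a filter of 5 TPM or without either MLKL library. Beside Il33, the monocyte attractant gene Ccl2 was at 237 and 233 TPM in the parental and 136 and 139.5 TPM in the MLKL libraries (-0.76 ± 0.05 (SE), adjusted p = 7.42e-11). The neutrophil attractant genes Cxcl5 and Cxcl1 read 30.3 and 30.2 against 10.2 and 10.7 TPM (-1.45 ± 0.10 (SE)) and 13.2 and 13.2 against 7.70 and 7.56 TPM (-0.72 ± 0.10 (SE)). Lif, a cytokine of the interleukin-6 family, went from 9.55 and 9.57 to 6.34 and 7.19 TPM (-0.45 ± 0.07 (SE)). In all 4, grouped here because they were called lower, the parental libraries lay above the MLKL libraries. Parental cells given AP20187 lay between the groups, with averages of 177 TPM of Ccl2, 8.48 TPM of Cxcl1 and 7.24 TPM of Lif. The lower levels did not hold in every untreated carrier of the construct. Ccl2 averaged 233 TPM in the noko, 212 in the calcium-free, 196 in the siCTR, 111 in the siPKC and 312 TPM in the p65ko group, beside 235 TPM in the parental group. Lif averaged 19.4 and 17.6 TPM in the noko and p65ko groups, above the parental 9.56 TPM, and between 6.5 and 7.77 TPM in the other 3. Cxcl1 and Cxcl5 stayed under their parental means in all 5 groups. The transmembrane chemokine gene Cx3cl1 was higher, at 0.616 and 0.736 against 3.44 and 3.34 TPM (1.39 ± 0.11 (SE)), as was Ccl9 (0.60 ± 0.12 (SE)). Il6, too low to be tested, was at 0.474 and 1.15 TPM in the parental and 0.702 and 0.752 TPM in the MLKL libraries.

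NF-kB is the factor that drives many of these cytokine genes. Among 18 tested NF-kB targets and feedback genes, 2 were higher and 6 lower (44.4%, under the 51.7% of all tested genes), none by 2-fold, and the 6 lower are 33.3% of the list, near the 29.4% of all genes. The 2 higher became 1 with a filter of 5 TPM or without either MLKL library. Nfkbia, the inhibitor that NF-kB itself induces, was at 51.2 and 51.9 against 46.9 and 46.8 TPM (-0.14 ± 0.03 (SE), adjusted p = 0.00235), Sod2 was lower (-0.43 ± 0.06 (SE)), and the subunit gene Nfkb2 was higher (0.33 ± 0.05 (SE)). Tnfaip3 was too low to be tested, at 0.719 and 1.09 TPM in the parental and 0.639 and 0.714 TPM in the MLKL libraries. Of 15 interferon-stimulated genes 1 was higher (Ifit1, 0.70 ± 0.15 (SE)) and 4 were lower (33.3% in all), among them the virus-tethering gene Bst2 (-1.46 ± 0.21 (SE)) and Stat2 (-0.52 ± 0.09 (SE)). The 4 became 2 without parental replicate 2 and 1 with a filter of 5 TPM, and the 1 higher became 0 without either MLKL library or with that filter and 2 with no filter.

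The genes that dimerization induces were also read in the undimerized state. A list was made from libraries outside the comparison, the siCTR and noko groups with and without 100 nM AP20187 for 1 h. In it 219 of 11908 genes (1.84%) were higher with AP20187 at 2-fold or more. Of these, 203 were tested here: 63 were higher in the undimerized MLKL libraries (31.0%), 87 were lower (42.9%) and 53 did not pass, beside 22.3% higher and 29.4% lower of all tested genes. The median difference was -0.072, beside -0.036 over all tested genes, with members called in both directions. Nr4a1 and Klf4, with dimerization effects of 1.78 and 1.74 on the log2 scale, are on the list and were higher before it, while Ier3 and Cxcl1, with effects of 4.59 and 5.55, are on it and were lower.

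Matrix genes changed in both directions. Of 16 collagens 4 were higher and 9 lower (81.2%, beside 51.7% of all tested genes), with Col6a3 (-0.59 ± 0.04 (SE)) and Col8a1 (-0.37 ± 0.04 (SE)) among the lower and Col3a1, a fibrillar collagen of loose connective tissue (0.41 ± 0.03 (SE)), among the higher. On the centred scale the collagens stood at -0.21 and -0.16 in the parental and -0.249 and -0.23 in the MLKL libraries. Every other untreated MLKL group stood above the parental level. The values were 0.206 and 0.275 (calcium-free), -0.076 and -0.068 (siCTR) and 0.666 and 0.596 (siPKC). They were -0.042 and -0.051 in the noko and 0.068 and 0.059 in the p65ko libraries. Of 31 other matrix genes 11 were higher and 14 lower (80.6%). Cyr61, a matricellular protein and a target of the YAP coactivator, was at 34.4 and 38.4 TPM in the parental and 9.44 and 10.3 TPM in the MLKL libraries (-1.78 ± 0.04 (SE)), and its relative Ctgf was lower too (-0.64 ± 0.03 (SE)). Tnc, the injury-associated tenascin C, read 370.3 and 360.3 against 165 and 174 TPM (-1.10 ± 0.03 (SE)). Thbs2, an inhibitor of vessel growth, went the other way with 33.2 and 33.0 against 67.5 and 68.3 TPM (1.01 ± 0.03 (SE)), as did Fbln5, which organizes elastic fibres, with 41.3 and 41.5 against 81.3 and 84.2 TPM (0.98 ± 0.03 (SE)). Wisp2 (2.00 ± 0.11 (SE)), Spon2 (1.72 ± 0.10 (SE)) and the calcification inhibitor Mgp (1.42 ± 0.10 (SE)) rose further, and Mfap5 fell (-1.83 ± 0.13 (SE)).

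Among 34 enzymes and inhibitors of matrix remodelling 8 were higher and 17 lower (73.5%). Timp2, a metalloproteinase inhibitor, was at 309 and 306 TPM in the parental and 509.6 and 514 TPM in the MLKL libraries (0.73 ± 0.03 (SE)), and Plat, tissue plasminogen activator, at 14.9 and 14.1 against 30.9 and 32.3 TPM (1.07 ± 0.05 (SE)). The urokinase receptor gene Plaur (-0.63 ± 0.04 (SE)) was lower, together with Mmp13 (-1.35 ± 0.11 (SE)) and Mmp3 (-1.15 ± 0.14 (SE)). Of 19 contractile genes 9 were higher (47.4%) and 5 lower (26.3%). Acta2, smooth muscle actin, read 15.3 and 17.4 against 41.4 and 36.5 TPM (1.2 ± 0.06 (SE)), the myosin light chain gene Myl9 5.06 and 4.28 against 13.5 and 15.4 TPM (1.45 ± 0.10 (SE)), and Tagln was higher (0.78 ± 0.08 (SE)), whereas Srf itself was lower (-0.47 ± 0.07 (SE)).

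Of 36 growth factors and receptor tyrosine kinases 15 were higher and 15 lower (83.3%, beside 51.7% of all tested genes). Fgfr1, a receptor for fibroblast growth factors, was at 29.8 and 29.6 TPM in the parental and 71.0 and 72.5 TPM in the MLKL libraries (1.24 ± 0.04 (SE), adjusted p = 6.84e-16). Nrg1, a ligand of ErbB receptors, read 9.21 and 8.91 against 26.1 and 27.7 TPM (1.47 ± 0.06 (SE)). The binding protein gene Igfbp6 had 117 and 117 against 357 and 343 TPM (1.57 ± 0.07 (SE)) and the platelet-derived growth factor receptor gene Pdgfrb 16.1 and 16.9 against 32.8 and 34.8 TPM (0.99 ± 0.04 (SE)). Ligands of the EGF receptor went down with Hbegf (-0.99 ± 0.06 (SE)) and Ereg (-0.79 ± 0.05 (SE)) but up with Btc (0.89 ± 0.12 (SE)). In the TGF-beta and BMP pathway 15 of 27 were higher (55.6%) and 7 lower (25.9%). Ltbp2 (1.93 ± 0.08 (SE)) and the BMP response genes Id2, at 67.8 and 66.9 against 126 and 121 TPM (0.86 ± 0.04 (SE)), and Id3 (0.93 ± 0.07 (SE)) were among the higher. The ligand gene Tgfb1 was lower, at 14.4 and 14.6 against 5.91 and 6.91 TPM (-1.07 ± 0.10 (SE)), with Ltbp1 (-0.56 ± 0.03 (SE)) and Bambi, a pseudoreceptor (-1.26 ± 0.12 (SE)).

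Adhesion genes divided into 8 higher and 10 lower of 23 (78.3%); beside Itgbl1 and Itgb4, Itgb5 was higher (0.93 ± 0.04 (SE)), and Itga3 was lower (-1.06 ± 0.08 (SE)). Semaphorins, plexins, slits and netrins had 5 higher and 8 lower of 22 (59.1%), among them the receptor gene Neo1 (-0.39 ± 0.03 (SE)) and Plxna4 (-0.65 ± 0.06 (SE)). The Wnt list had 5 higher and 4 lower of 14 (64.3%), with the coreceptor Lrp5 higher (0.69 ± 0.06 (SE)) and the receptor Fzd5 lower (-0.87 ± 0.09 (SE)), and the Notch list 2 higher and 1 lower of 8 (37.5%), led by its target Hes1 (0.46 ± 0.11 (SE)). The Notch counts became 1 higher with a filter of 5 TPM or without either MLKL library, and 2 lower with no filter or without small and ribosomal RNA. Of 17 Hox genes 4 were higher and 2 lower (35.3%), among them Hoxa5 (0.52 ± 0.05 (SE)) and Hoxa4 (-0.55 ± 0.09 (SE)), and the 4 became 2 without parental or MLKL replicate 2. Imprinted genes had 5 higher and 5 lower of 19 (52.6%), with Grb10 (0.48 ± 0.03 (SE)) and Peg3 (-0.84 ± 0.07 (SE)) moving in opposite directions.

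Most markers of other mesenchymal lineages were untested because of low levels, and those tested split. Of 24 skeletal muscle genes 7 were tested, with 3 higher and 1 lower (57.1%), the 3 becoming 1 with a filter of 5 TPM or without either MLKL library and 5 with no filter: the cardiac and embryonic troponin gene Tnnt2 was the largest rise (1.64 ± 0.11 (SE)), and Mef2c was lower (-0.57 ± 0.06 (SE)). Of 8 tested adipocyte genes 5 were higher, including Cebpd (1.07 ± 0.08 (SE)) and Cebpb (0.71 ± 0.11 (SE)), early factors of fat-cell differentiation, and 2 lower, led by Angptl4 (-0.64 ± 0.05 (SE)), of which 1 was left without parental or MLKL replicate 1. Of 5 bone and cartilage genes 1 was higher (Runx2, 0.49 ± 0.05 (SE)) and 3 lower, led by Phex (-0.95 ± 0.10 (SE)). Fibroblast markers split evenly, 6 higher and 6 lower of 16 (75.0%), with Thy1 lower (-0.60 ± 0.04 (SE)) and Vim higher (0.28 ± 0.03 (SE)). Of 4 tested macrophage markers 2 were lower, Csf1r (-1.32 ± 0.10 (SE)) and Cd14 (-0.97 ± 0.08 (SE)), and the 1 tested endothelial marker, Cdh5, was lower (-0.32 ± 0.13 (SE)) but lost its call in 8 of the alternative settings. Pecam1, another endothelial marker and too low to be tested, went the other way, at 0.0493 and 0.13 TPM in the parental and 0.721 and 0.831 TPM in the MLKL libraries. It was between 0.568 and 1.35 TPM in the calcium-free, siCTR, noko and p65ko libraries, at 0.339 and 0.187 TPM in the siPKC, 0.116 and 0.097 TPM in the GSDMD and 0.299 and 0.522 TPM in the noDig libraries.

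Of 50 mitosis and cell cycle genes 23 were lower and 6 higher, beside 29.4% lower and 22.3% higher over all tested genes, none by 2-fold. The replication licensing gene Mcm3 was at 298 and 297 TPM in the parental and 186 and 187 TPM in the MLKL libraries (-0.67 ± 0.03 (SE)), with Cdk2 (-0.65 ± 0.06 (SE)), the ribonucleotide reductase gene Rrm2 (-0.45 ± 0.03 (SE)) and the mitotic kinase gene Plk1 (-0.39 ± 0.04 (SE)) also lower. Of 28 glycolysis and hypoxia genes 15 were lower (53.6%), among them the glycolytic enzymes Aldoa (-0.67 ± 0.04 (SE)), Pkm (-0.53 ± 0.04 (SE)) and Ldha (-0.41 ± 0.03 (SE)), and 6 were higher (21.4%), led by the angiogenic factor Vegfa at 62.1 and 65.1 against 106 and 106 TPM (0.73 ± 0.04 (SE)). Genes of the unfolded protein and integrated stress responses had 12 lower (52.2%) and 3 higher (13.0%) of 23, beside 29.4% and 22.3% of all tested genes; the lower included the chaperone Hspa5 (-0.26 ± 0.04 (SE)), the factor Atf4 (-0.29 ± 0.02 (SE)) and the one-carbon enzyme Mthfd2 (-0.48 ± 0.03 (SE)), and the 3 higher became 1 without parental replicate 1, parental replicate 2 or MLKL replicate 2.

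Oxidative stress and metal genes had 10 higher and 7 lower of 21 (81.0%). Gsta4, a glutathione transferase for lipid peroxidation products, was at 12.9 and 12.7 TPM in the parental and 54.4 and 53.2 TPM in the MLKL libraries (1.99 ± 0.08 (SE)), and the NRF2 target Nqo1 was higher (0.89 ± 0.08 (SE)). Txnip, which binds thioredoxin and limits glucose uptake, read 185 and 179 against 86.7 and 87.2 TPM (-1.06 ± 0.04 (SE)), and Slc7a11, the cystine transporter, was lower (-0.80 ± 0.08 (SE)). Heat shock genes had 5 higher and 5 lower of 14 (71.4%; 3 lower without parental or MLKL replicate 1), with Hsp90ab1 lower (-0.43 ± 0.02 (SE)) and the small chaperone gene Cryab higher (0.75 ± 0.05 (SE)). Cytosolic ribosomal protein genes had 7 higher and 7 lower of 38 (36.8%, beside 51.7% of all tested genes); this split became 11 and 5 with median centring and 7 and 11 with quantile normalization. Proteasome subunit genes had 5 higher and 4 lower of 31 (29.0%), with 8 higher under median centring or quantile normalization and 3 without parental replicate 1 or MLKL replicate 2.

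**Figure D4:**
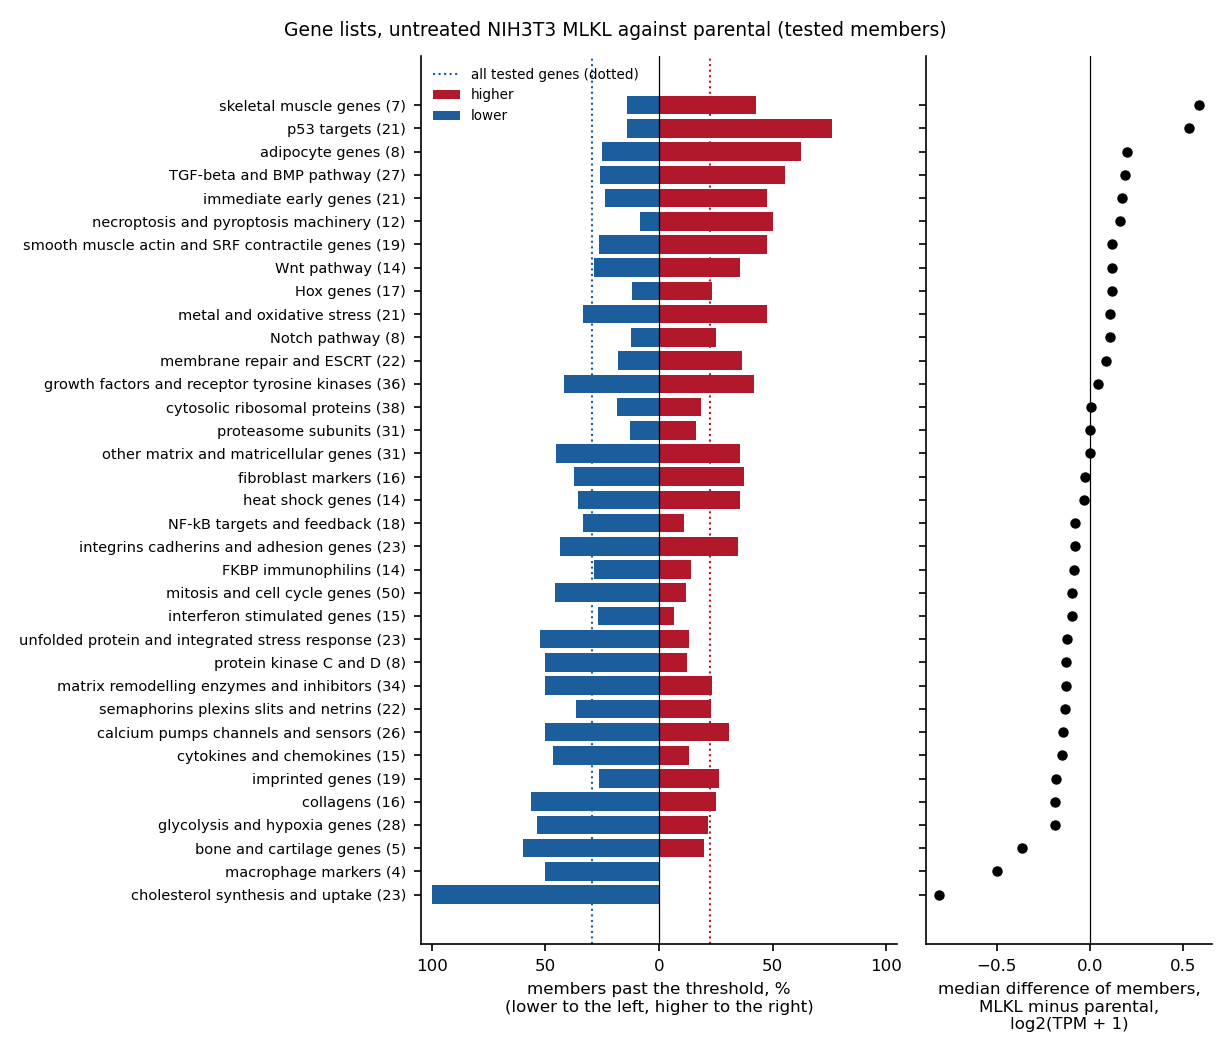
Left, share of tested members of each of 35 gene lists (number tested in brackets) that passed the threshold in the comparison of MLKL with parental libraries, higher to the right in red and lower to the left in blue, in percent; dotted lines mark the shares over all tested genes (22.3% and 29.4%). Right, median difference of the tested members on log2(TPM + 1); the cholesterol list lies at -0.809 with all 23 members lower, and p53 targets at 0.528 with 16 of 21 higher.

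The same question was asked of untreated libraries outside the comparison, with the siCTR and noko MLKL groups set against the noDig group whose label is in doubt. There 8519 of 11805 genes passed (72.2%), but the median of all genes shifted by 0.275, so values are given after centring each library on its median: 3385 genes were then higher (28.7%) and 5137 lower (43.5%). Of the 193 genes that were 2-fold or more higher in the MLKL libraries, 188 were tested there; 35 were higher again (18.6%) and 72 lower. Of the 142 that were 2-fold or more lower, 101 were tested there; 60 were lower again (59.4%) and 18 higher. The share of rises found again was under the 28.7% of all genes called higher there. The share of falls, of tested genes only, was above the 43.5% called lower but cannot be read against that figure. A gene near 0 in the siCTR and noko groups was tested there only where the noDig libraries held at least 1 TPM. That filter favours a call of lower, and it left out 41 of the 142 falls but 5 of the 193 rises. Of the 41 falls not tested there, several, such as Cox7b2, were near 0 in the noDig group as well. In the same centred comparison 15 of the 23 cholesterol genes were higher and 5 lower, with a median of 0.236. Of 21 p53 targets 9 were higher and 9 lower there, with a median of -0.068. Over the parental and noDig groups (4 libraries) and the MLKL, siCTR and noko groups (6 libraries), 78 of the 193 rises and 37 of the 142 falls kept all MLKL libraries on 1 side of those 4 libraries. Over all tested genes 1218 (10.5%) were so separated upward and 299 (2.57%) downward. These counts of separated genes used TPM without centring. The median over tested genes was 15.7 TPM in both noDig libraries and 19.8 to 21.4 TPM in the MLKL, siCTR and noko libraries. That lower scale of the noDig libraries favours separation upward over separation downward. The choice of the 193 and 142 genes fixes part of that separation, since 4 of the 10 libraries are those that chose them.

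Other pairs of untreated NIH3T3 groups also differed in a majority of genes. Between noDig and parental libraries 8786 of 11546 genes passed (76.1%), with a median shift of -0.291; the comparison shares its parental libraries with that of MLKL and parental. The GSDMD construct gave 8796 of 11571 genes against noDig (76.0%, median shift 0.318), and MLKL against GSDMD libraries 7192 of 11684 (61.6%). The comparison of MLKL with parental libraries (51.7%) had the lowest of these shares, and the 2 groups that the labels both call construct-free had one of the highest.

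Differences varied along the genome. Of 11655 tested genes 11198 had 1 position in the GENCODE vM21 annotation (mm10). Chromosome 15 stood highest, with a median difference of 0.24 over 449 genes, 57.7% of them higher and 6.68% lower. Chromosome 19 followed at 0.104, and chromosomes 7 and 10 were lowest at -0.18 and -0.135, with 46.1% of 854 and 44.9% of 557 genes lower. Medians of 25 neighbouring genes, taken every 5 genes, ran from -0.433 to 0.607, and 17.6% of 2149 windows lay more than 0.2 from 0. Runs of at least 3 such windows formed 36 segments, 17 higher and 19 lower. Summed over the segments, the gene counts came to 2440, or 21.8% of the number of placed genes. The sums for genes past the threshold and for genes at 2-fold or more came to 29.3% and 31.2% (100 against 320) of the placed ones. A gene in overlapping segments was counted in each, so these sums and shares are upper bounds. The segments were drawn on the same values, can overlap at their ends and are given as a description.

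Neighbouring segments of opposite sign marked some chromosomes. On chromosome 4 the genes of chr4:4762484-40965303 had a median of 0.416 (75 genes, 45 higher and 18 lower) and those of chr4:44991242-72200919 a median of 0.371 (85 genes). Between and across their edges, chr4:33031416-46472657 had -0.285 (80 genes, 47 lower). The first of these holds Trp53inp1. On chromosome 10, chr10:3256208-61693297 had a median of -0.333, with 112 of 165 genes lower and 12 higher, and chr10:76207326-80742264 a median of 0.312, with 57 of 90 higher. Lss lies near the start of that higher segment, within its overlap with the lower segment chr10:60712072-77061002, and was itself lower. That lower segment had a median of -0.219, with 41 of 70 genes lower and 7 higher. Chromosome 17 had -0.289 over chr17:21816885-31855804 (150 genes, 92 lower), and the X chromosome 0.317 over chrX:105037197-148033174 and -0.294 over chrX:148180724-170005736, with 70 genes each. The run with the most windows on chromosome 15 (18), chr15:64086857-79834237, had 0.28 with 72 of 110 genes higher, including Apol9b.

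The level of chromosome 15 was shared by libraries of a group and differed between groups. Its centred median was -0.203 and -0.183 in the parental and -0.211 and -0.195 in the parental AP20187 libraries, 0.082 and 0.086 in the MLKL libraries and between 0.006 and 0.121 in the other untreated MLKL groups. The GSDMD libraries had -0.196 and -0.199 and the noDig libraries 0.255 and 0.257. Transcript GC content and length moved little with the differences: over 5 equal bins of GC content the medians ran from -0.065 to -0.007, and over 5 bins of length from 0.002 to -0.087. With the median of genes of like GC content and length taken off, an adjustment added after the data were seen, chromosome 15 was at 0.266, chromosome 7 at -0.156 and chromosome 10 at -0.096. That step also takes off the overall median of -0.037. The shift from the unadjusted medians is therefore not the effect of GC content and length alone. Transcript levels do not measure DNA copies.

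**Figure D5:**
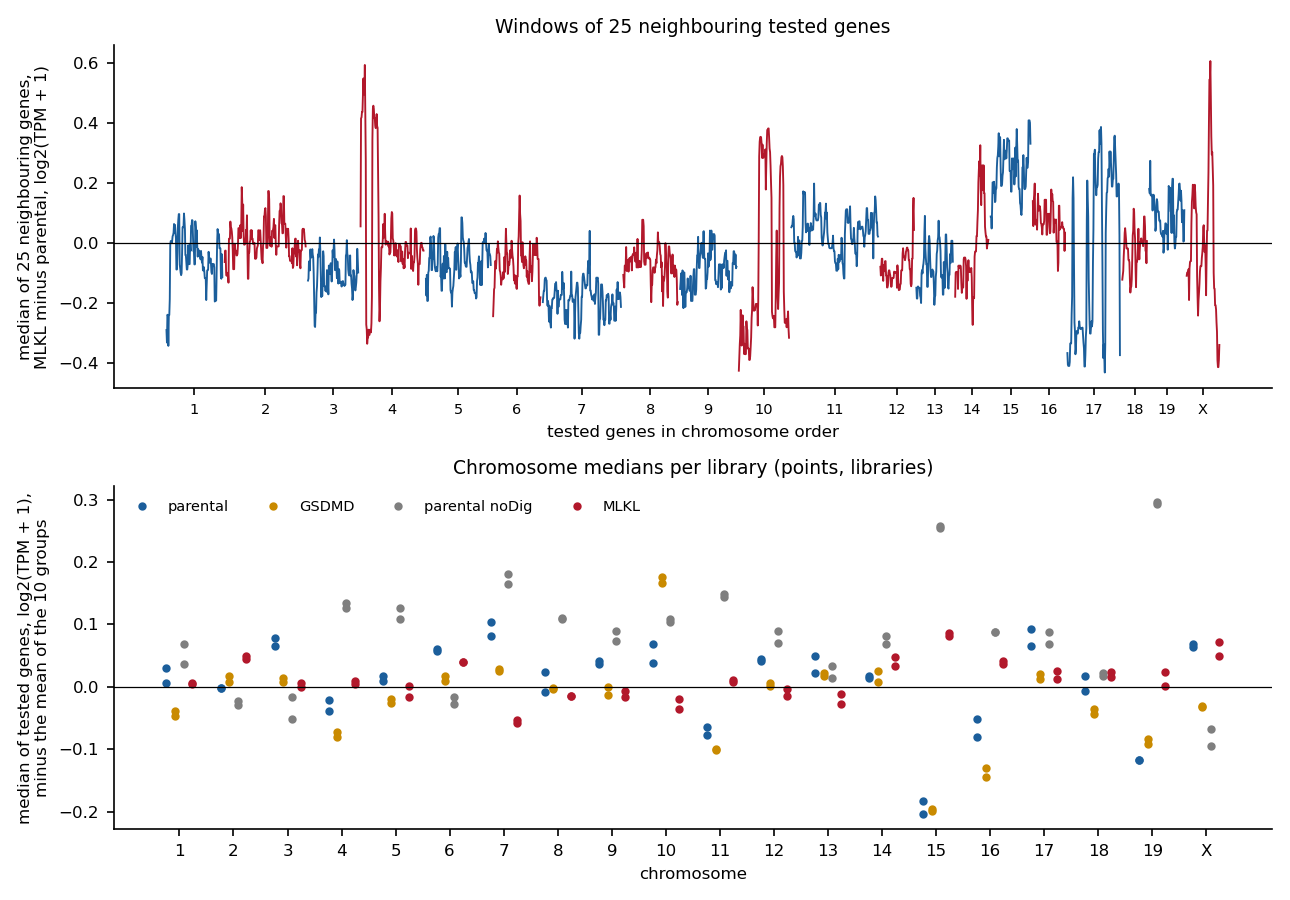
Top, median difference (MLKL minus parental, log2(TPM + 1)) of 25 neighbouring tested genes, in chromosome order with colours alternating between chromosomes. Bottom, median level of each chromosome in each library (points) of 4 NIH3T3 groups, on log2(TPM + 1) minus the mean of 10 groups; chromosome 15 is lowest in the parental and GSDMD libraries, higher in MLKL and highest in noDig.

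The construct was also carried by LLC cells, a mouse lung carcinoma line, without treatment. There 6482 of 11236 genes differed from LLC parental cells (57.7%); after centring 3524 were higher (31.4%) and 3081 lower (27.4%). These libraries are not shared with the NIH3T3 comparison. Of the 193 genes at 2-fold or more higher in NIH3T3, 108 were tested in LLC and 37 were higher (34.3%) and 31 lower; of the 142 lower genes, 92 were tested and 20 were lower (21.7%) and 46 higher (50%). The share of rises found again was near the 31.4% of all genes; of the falls, fewer were lower than the 27.4% and more were higher than the 31.4% of all genes. Fitted as an interaction, the construct's effect differed between the lines in 7003 of 12400 genes (56.5%).

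Cholesterol genes went opposite ways in the 2 lines: 21 of 23 were higher in LLC MLKL cells after centring, with a median of 0.578, and the other 2 did not pass. Insig1 had an effect of -0.86 in NIH3T3 and 0.98 in LLC, and Lss of -1.36 and 0.48. For p53 targets, 9 of 20 tested in LLC were higher and 7 lower, with a median of 0.061, and Ccng1 had 1.47 in NIH3T3 and -0.37 in LLC. Necroptosis and pyroptosis genes in LLC had 8 lower of 11, and the other 3 did not pass.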

How the data were processed

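The authors deposited one table of TPM per gene and library for the mouse lines. The unit was inferred from the values, which sum to between 999910 and 999989 in each library. Salmon is named in the submitters' processing notes, its version is not given in the sources used here, and TPM keep no depth. Per the labels, RNA was polyadenylated and fragmented at random.

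From these values log2(TPM + 1) was computed, and genes with at least 1 TPM in at least 2 libraries of a comparison were tested with limma 3.58.1 (trended variance) in R 4.3.3, as 1 model with a mean for each of the 18 groups over 35 NIH3T3 libraries. The 16 LLC libraries had their own fit, and the interaction was fitted over both lines. P-values were adjusted by Benjamini-Hochberg over all tested genes, with a threshold of 0.05. No replicate block was used: the replicate differences of MLKL and parental libraries correlated at -0.044. The code was tested on simulated data. Alternatives were the pseudocount, filters, normalization, fewer libraries, and each replicate left out.

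Genes were named by rule: the 15 largest rises and 15 largest falls among genes past the threshold whose groups did not overlap and whose higher group averaged at least 5 TPM (predicted genes, microRNAs and small nucleolar RNAs left out), up to 4 members of each of 37 lists by smallest p, and 13 genes of the death pathway and its known response. Further list members named in the text were chosen after their values were seen. Single values of some genes that the rule names are not reported here. The members and lists were chosen with earlier results of these data known. Of the 13, Esr1 was too low to be tested between MLKL and parental libraries, and no epithelial marker reached the tested level.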

Additional observations from a re-analysis of the deposited data

Results flagged for a closer look

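For 16 of the genes named above, the effect of carrying the construct without treatment went in opposite directions in NIH3T3 and LLC cells. They were picked for opposite signs, for an effect past the threshold in LLC and for a passing difference between the lines. That difference was an interaction in limma over both lines (adjusted p from 5.26e-23 for Rhox5 to 2.12e-05 for Mlkl). These properties are therefore the rule of choice and not further findings. Over all genes, 7003 of 12400 passed the interaction (56.5%), and the number of genes screened for this list is not given here. In the limma fit of each line, the largest adjusted p was 0.0299 in LLC, for Il33, and 0.000624 in NIH3T3, for Mlkl. Each LLC effect passed with the same sign after centring, the largest adjusted p being 0.0398 for Cbr1. Each group has 2 libraries, and each value below is the NIH3T3 effect minus the LLC effect on log2(TPM + 1).

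Among the genes with the largest changes in NIH3T3, the difference was 4.71 for Gchfr (3.38 in NIH3T3 and -1.32 in LLC), 2.97 for Cbr1 (2.69 and -0.28), -6.18 for Rhox5 (-4.76 and 1.43), -3.75 for Il33 (-3.44 and 0.31) and -4.21 for Dppa2 (-3.02 and 1.19). Cholesterol genes differed by -1.85 for Lss (-1.36 and 0.48) and -1.84 for Insig1 (-0.86 and 0.98).

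Targets of p53 had differences of 1.83 for Ccng1 (1.47 and -0.37) and 0.89 for Mdm2 (0.72 and -0.17). The death genes Gsdmd and Mlkl had 1.73 (0.90 and -0.83) and 0.41 (0.26 and -0.15). Among cytokine and early genes, the difference was -1.14 for Ccl2 (-0.76 and 0.37), -1.30 for Cxcl1 (-0.72 and 0.58), -0.90 for Lif (-0.45 and 0.46), -1.56 for Egr1 (-0.46 and 1.10) and -2.02 for Ier3 (-1.14 and 0.88).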

How the results depend on the processing

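Across the alternatives the count of genes that differed between MLKL and parental libraries stayed within 1.5 times 6027: 5894 with a pseudocount of 0.1, 6160 with quantile normalization, 5984 with median centring, 6209 with no filter, 5346 with a filter of 5 TPM, 5405 with only the libraries of the comparison and 6067 without the digitonin experiment, the last chosen after seeing the data. The fit with a replicate block gave 6011; replicate numbers did not pair the samples (r = -0.044), and it changed no count by over 1.5 times (8504 genes for the other MLKL groups, 8782 for GSDMD, 7155 for MLKL against GSDMD, 8785 for the 2 parental groups, 6388 for LLC, 7004 for the interaction and 221 induced by dimerization). Leaving out 1 library at a time gave 4767 to 5153 genes for MLKL against parental, 7676 to 8376 for the other MLKL groups against noDig, 7868 to 8207 for GSDMD, 6135 to 6295 for MLKL against GSDMD, 7834 to 8204 for the 2 parental groups, 5140 to 5534 for LLC, 6325 to 6517 for the interaction and 214 to 227 for dimerization. A log2 minimum of 2 left 56 genes induced by dimerization in place of 219. Scaling moved the split of higher and lower genes: 6882 and 1637 for the other MLKL groups became 3385 and 5137 with centring and 3937 and 4355 with quantile normalization, 6918 and 1878 for GSDMD became 3517 and 4998 and 4166 and 4096, 2121 and 6665 for the parental groups became 4921 and 3648 and 4160 and 4253, and 3098 and 4094 for MLKL against GSDMD became 3897 and 3402 with centring. Of 167 named genes 159 passed in every setting that tested them; Raet1b, Fkbp8, Cdh5, Prkca, Sox5, Prkci, Tnni1 and Fkbp1a lost the call in at least 1, and no named gene changed direction. With 2 libraries a group and no depth, small differences at low TPM are the least certain.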
